A study of Mus musculus with 2 samples.

Results

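The genes described here are 45 mouse genes that encode subunits of the BAF and NuRD chromatin remodelling complexes or proteins of the CHD family, taken by gene name from a fixed list. All 45 were found among the 21461 nuclear protein-coding genes of the tables. They were sorted into 20 positions, a position being a place in a complex, or a subfamily of the CHD enzymes, for which 1 or more related genes code; 26 genes fell in BAF positions, 13 in NuRD positions and 6 in the remaining CHD subfamilies. RNA was measured in the forebrain of mouse embryos of strain B6NCrl at embryonic day 14.5, with no treatment and no mutant allele named in the labels. There was 1 group with biological replicates 1 and 2. Each library came from a single forebrain and from 10 ng of total RNA longer than 200 nt, and the libraries were collected on different days. The labels give both the same donor identifier and a pooled sex, so they do not settle from which animals the tissue came, and the spread between the libraries may be partly technical.

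Chromatin remodellers use the energy of ATP to slide, evict or exchange nucleosomes. BAF, the mammalian form of the yeast SWI/SNF complex, opens regulatory DNA, and during brain development its subunits are exchanged: complexes of dividing neural progenitors carry Actl6a, Phf10 or Dpf2, and Ss18, while those of postmitotic neurons carry Actl6b, Dpf1 or Dpf3, and Ss18l1. NuRD joins an ATPase of the CHD family to histone deacetylases, and mutations in many genes of both complexes and in several CHD genes are known causes of human neurodevelopmental disorders.

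The forebrain markers Emx1, Emx2, Lhx2 and Tbr1 were all detected, that is, at 1 TPM or more (a transcript level divided by transcript length and scaled to a constant sum per library) in both libraries, whereas 0 of 5 midbrain and hindbrain markers were. Red blood cell, endothelial, microglial and meningeal markers were also present, with summed levels of 4298 and 5523, 113 and 122, 95.1 and 103, and 207 and 274 TPM in replicates 1 and 2. The tissue was thus measured whole, and here fewer cells of a type and less RNA per cell cannot be told apart. Depth was 35310017 and 29250404 expected counts, which are estimated read numbers per gene. The members held between 216 and 18116 counts each. Taking estimated counts as independent reads, the members' counts differed between the libraries by more than counting error (chi-square 1311 on 44 degrees of freedom), and the libraries were counted as 2.

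All 45 members were detected in both libraries, against 59.6% of all nuclear protein-coding genes. The median level of the members was 48.2 ± 1.41 TPM (SD of the 2 library medians), compared with 19.4 TPM over the 12795 detected nuclear protein-coding genes. In 36 of the 45 genes the mean level was above that median of detected genes. Together they made up 3531 TPM in replicate 1 and 3859 TPM in replicate 2, which was 0.434% and 0.463% of the TPM of nuclear protein-coding genes. The range was wide: 3 members had a mean under 10 TPM, 13 lay from 10 to 25, 15 from 25 to 100 and 14 at 100 or more. The lowest, Dpf3, stood at the 26.3rd percentile of detected genes and the highest, Hdac2, at the 97.6th.

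**Figure D1:**
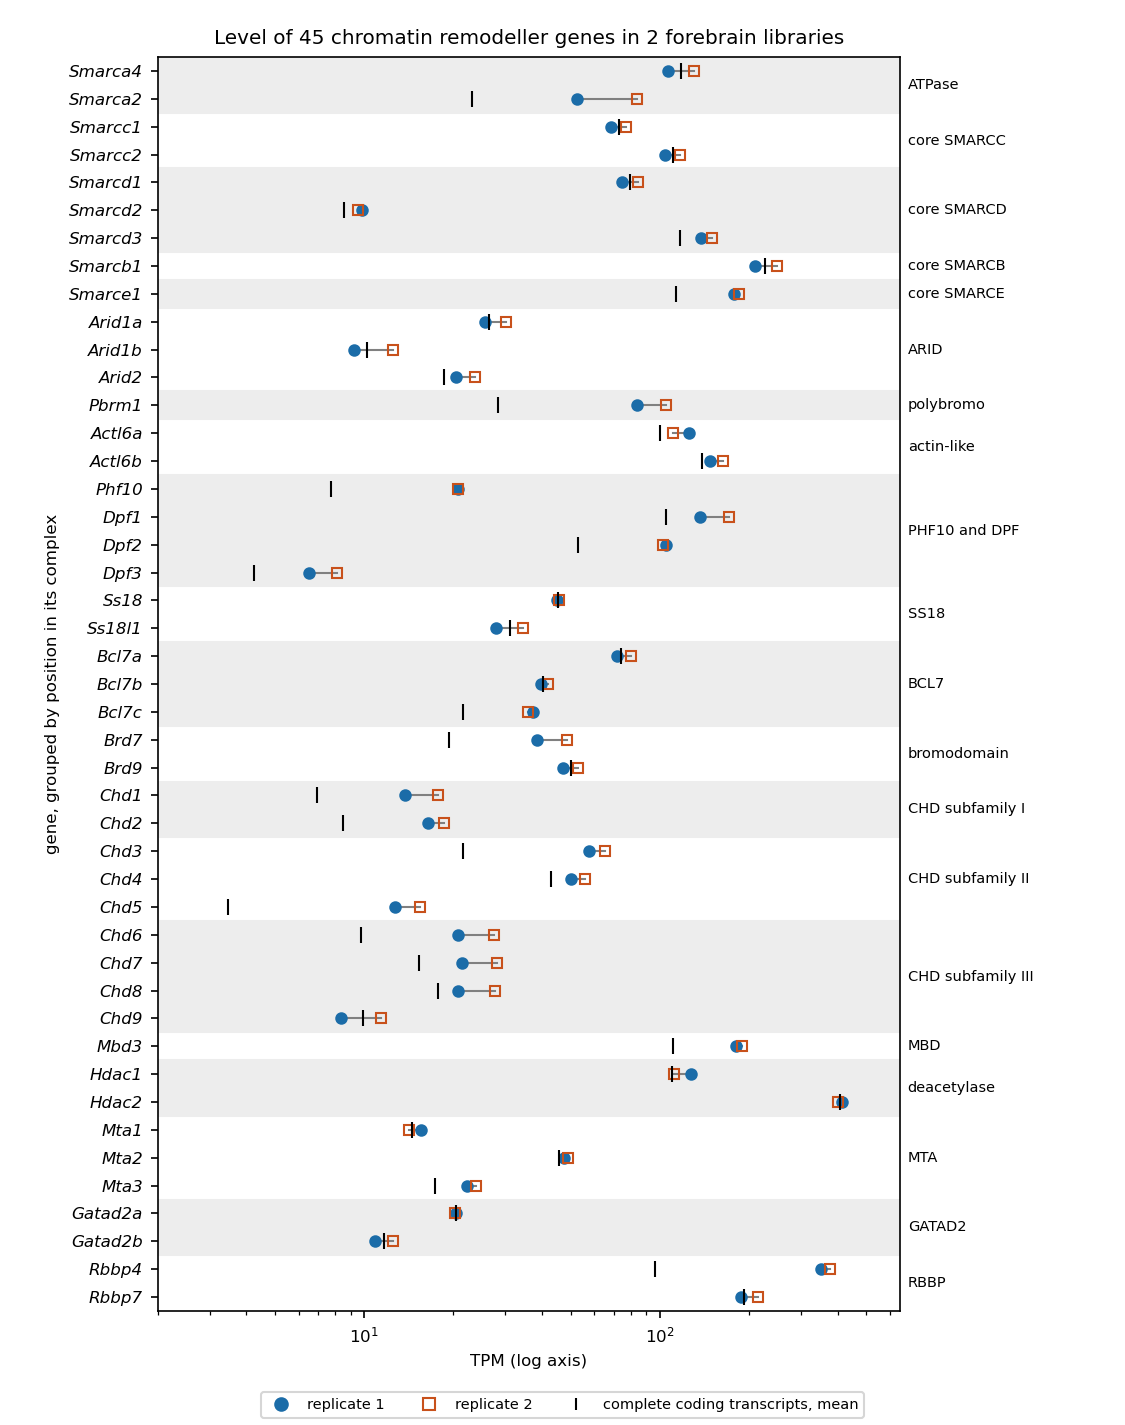
Level of each of the 45 genes in TPM (horizontal log axis), with replicate 1 as filled circles, replicate 2 as open squares, and the mean over complete protein-coding transcripts as a black tick. Genes are grouped by position, and most pairs of symbols lie close together, with the widest gap at Smarca2 (52.5 and 83.9 TPM). The black tick lies far to the left for Smarca2, Rbbp4, Pbrm1, Phf10, Chd3 and Chd5, among others.

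Levels within a position were compared in each library by the deposited TPM intervals, and a pair of genes was called separated when they did not overlap in either library and the same gene was higher each time. Of the 36 pairs within positions, 30 were separated, beside 87.9% of all pairs of detected genes, so separation as such was not particular to these families. A difference of 2-fold or more in both libraries was found for 16 pairs. The share of all pairs of detected genes that meet this rule was not computed, so the count cannot be called high or low. Because the level of a gene is the sum over its annotated transcripts, short non-coding or partial transcript models can add much to it. Where it changed a call or moved a level much, a comparison is therefore also given for complete protein-coding transcripts, meaning models of type protein_coding that are not marked as cut off at either end.

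Among the ATPases that drive BAF, Smarca4 (BRG1; chr9:21616169-21704230) measured 107 and 131 TPM in replicates 1 and 2, and Smarca2 (BRM; chr19:26605050-26778322) measured 52.5 and 83.9 TPM. Smarca4 was higher in each library, 1.78-fold on average (log2 ratio 0.83 ± 0.27), and the groups of values did not overlap. Smarca4 held 64.0 ± 4.34% of the summed TPM of the pair. Over complete protein-coding transcripts, Smarca4 was at 107 and 129 TPM but Smarca2 at only 15.6 and 30.9 TPM. By that measure Smarca4 held 84.0 ± 4.63%, and by expected counts 80.7%.

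The core of the complex is built on Smarcb1, Smarce1, the Smarcc scaffold proteins and the Smarcd proteins. Smarcb1, a tumour suppressor in rhabdoid cancers, was the highest of the 26 BAF members at 211 and 249 TPM, and Smarce1, an HMG-box protein, measured 178 and 185 TPM. Smarcc2 (BAF170) at 104 and 117 TPM exceeded Smarcc1 (BAF155) at 68.3 and 77.1 TPM by 1.52-fold. This ratio was nearly the same in both libraries (log2 ratio of Smarcc1 over Smarcc2 -0.61 ± 0.00), and Smarcc2 held 60.3% of the pair.

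Of the Smarcd genes, Smarcd3 (BAF60c) was highest with 138 and 149.9 TPM, followed by Smarcd1 (BAF60a) with 74.7 and 84.4 TPM. Smarcd2 (BAF60b), known for its part in granulocyte development, was at 9.80 and 9.52 TPM, 14.9-fold below Smarcd3. The order of Smarcd3 and Smarcd1 depended on the division by length: expected counts put Smarcd1 at 51.2% and Smarcd3 at 43.8% of the position, with a log2 ratio of Smarcd1 over Smarcd3 of 0.22 against -0.85 in TPM. In addition, 48.2% of the exonic bases of Smarcd3 overlap Chpf2 on the opposite strand, which was at 5.64 and 5.83 TPM, and whether reads were assigned by strand is not given in the sources used here.

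The ARID proteins and Pbrm1 mark the variant complexes: Arid1a and Arid1b define canonical BAF, and Arid2 and Pbrm1 define PBAF. Arid1a measured 25.7 and 30.2 TPM, Arid2 20.5 and 23.8 TPM, and Arid1b 9.24 and 12.6 TPM. Each of the 3 pairs was separated, with Arid1a 1.26-fold above Arid2 and 2.59-fold above Arid1b. The shares of Arid1a, Arid2 and Arid1b were 45.9 ± 0.71%, 36.4 ± 0.86% and 17.8 ± 1.58%, and each differed from these by at most 3.48 percentage points over complete coding transcripts or by counts. Pbrm1, which carries several bromodomains, was at 84.0 and 105 TPM. Only 30.2% of that came from complete coding models, which left 27.8 and 28.8 TPM, beside 17.6 and 19.6 TPM for Arid2 by the same measure.

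The subunits that are exchanged between progenitors and neurons were all expressed in the same tissue. Actl6a (BAF53a) measured 126 TPM in replicate 1 and 111 TPM in replicate 2, and Actl6b (BAF53b) measured 148 and 164 TPM. The neuronal form was higher in both libraries, by 1.32-fold on average, and held 53.9% and 59.6% of the pair. With complete coding transcripts the log2 ratio of Actl6a over Actl6b was -0.47 beside -0.40 for all transcripts, so the difference did not shrink. The pair was not called separated there, but by the fold rule used without intervals. The deposited intervals of the only complete coding transcripts lay apart in both libraries. They were 99.1 to 106 and 86.6 to 94.2 TPM for Actl6a-201 in replicates 1 and 2. For Actl6b-205 they were 125 to 133 and 137 to 146 TPM. By expected counts the genes were even, with Actl6b at 50.4%. The summed level of both was 274 TPM in each library, with Actl6a lower and Actl6b higher in replicate 2. With TMM-normalized counts only Actl6a clearly differed (log2 ratio of replicate 2 over replicate 1 -0.35, against -0.03 for Actl6b). Of the exonic bases of Actl6a, 11.6% overlap Mrpl47 on the opposite strand, which was at 34.5 and 36.6 TPM, and Actl6b overlaps no other exon.

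Of the double PHD finger subunits, Dpf1 (BAF45b) was highest at 137 and 172 TPM and Dpf2 (BAF45d) followed at 105 and 103 TPM. By expected counts this pair was not separated (log2 ratio of Dpf1 over Dpf2 0.17, against 0.56 in TPM). Phf10 (BAF45a), the form of progenitors and of PBAF, was at 20.7 TPM in both libraries, 7.39-fold below Dpf1, and 9.56% of its exonic bases overlap 1600012H06Rik (24.0 and 28.0 TPM) on the opposite strand. Dpf3 (BAF45c) was the lowest of all 45 genes at 6.49 and 8.09 TPM, and Dpf1 exceeded it 21.1-fold. Phf10 exceeded Dpf3 2.86-fold over all transcripts, with a log2 ratio of 1.52. The ratio was 1.65 by counts and 0.89 over complete coding transcripts, and over all protein-coding transcripts, partial ones included, it was 0.09 and the pair was no longer separated.

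The SS18 position went the other way, since Ss18 at 44.9 and 45.6 TPM exceeded the neuronal Ss18l1 (CREST) at 27.9 and 34.4 TPM by 1.46-fold. Ss18 held 61.7% of the pair in replicate 1 and 57.0% in replicate 2. By expected counts the genes were again close to even, at 50.7% for Ss18. In the neuronal direction, then, the share of Actl6b, Dpf1 and Ss18l1 in the TPM of their positions was higher in replicate 2 than in replicate 1 by 5.70, 5.80 and 4.65 percentage points. For Dpf3, also a neuronal form, it was higher by only 0.25 points. Alongside, the neuron markers Tubb3, Dcx, Stmn2, Map2, Gap43 and Rbfox3 summed to 3163 and 3767 TPM, with 6 of 6 higher in replicate 2. The progenitor markers Sox2, Nes, Vim, Fabp7, Hes5 and Pax6 summed to 2019 and 1995 TPM, with 2 of 6 higher. Of all nuclear protein-coding genes with a mean of 5 TPM or more, 73.8% were higher in replicate 2. No marker of either set was at 0, and their part in the shares of the subunits was not tested.

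The start regions of Actl6a and Actl6b, and of Phf10 and Dpf1, are shown because the genes of each pair code for the same position in the complex and differ in level. Those of Dpf2, Dpf3 and Ss18l1 are not shown. The sequences are RefSeq promoters on GRCm38.p6, read along the strand of the gene. Each was cut to the bases before the first annotated start that falls within the promoter entry. For Actl6b, Phf10 and Dpf1 this was the first annotated start of the gene. The stretch of Actl6a lies inside its gene, which begins at chr3:32706298 in the annotation. Capitals mark CCAAT (or its reverse complement ATTGG) and the SP/KLF motif GGGGCGG (or CCGCCCC). Actl6a lies at chr3:32708296-32708506 (plus strand), Actl6b at chr5:137553296-137553516 (plus strand), Phf10 at chr17:14961274-14961510 (minus strand) and Dpf1 at chr7:29303755-29303950 (plus strand).
Actl6a: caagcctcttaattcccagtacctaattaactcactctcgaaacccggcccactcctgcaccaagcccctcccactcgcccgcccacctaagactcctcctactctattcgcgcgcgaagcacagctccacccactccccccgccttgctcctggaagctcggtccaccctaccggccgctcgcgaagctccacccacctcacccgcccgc
Actl6b: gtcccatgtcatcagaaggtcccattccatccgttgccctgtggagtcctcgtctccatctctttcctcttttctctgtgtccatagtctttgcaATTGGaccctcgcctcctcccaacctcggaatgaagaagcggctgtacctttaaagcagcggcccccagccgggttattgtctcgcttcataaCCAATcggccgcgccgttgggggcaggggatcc
Phf10: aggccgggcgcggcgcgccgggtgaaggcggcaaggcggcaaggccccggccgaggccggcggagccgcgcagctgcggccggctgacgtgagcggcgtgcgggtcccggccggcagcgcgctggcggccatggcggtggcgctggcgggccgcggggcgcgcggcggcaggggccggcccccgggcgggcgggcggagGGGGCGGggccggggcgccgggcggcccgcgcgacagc
Dpf1: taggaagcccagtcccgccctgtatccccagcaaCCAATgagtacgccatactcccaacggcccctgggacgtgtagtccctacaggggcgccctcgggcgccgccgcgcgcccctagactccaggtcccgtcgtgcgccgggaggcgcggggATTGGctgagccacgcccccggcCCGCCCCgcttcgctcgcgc
The stretches of Actl6b and Dpf1 each hold CCAAT on both strands, and those of Actl6a and Phf10 hold none. The window of the neuronal Dpf3 holds CCAAT as well. Yet CCAAT did not divide neuronal from progenitor forms over all the exchanged genes with a promoter entry. The window of the progenitor form Dpf2 also holds it, and that of the neuronal Ss18l1 does not.

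Promoters were matched for 35 of the 45 genes, 42 windows in all, each of 300 bases from 250 before to 50 after the RefSeq start. The windows were rich in G and C, with a median of 68.5% against 57% over all 19931 promoters. CpG dinucleotides were kept at a median of 0.892 of the number that base composition gives, against 0.593, and only 2 of 42 windows were under 0.6, against 50.5% of all. Those with low CpG were Smarcd2, at 0.177, and 1 of the starts of Chd9. Both of these windows lie inside the annotated gene, past its first annotated start. The motif GGGGCGG on either strand was found in 28 windows (66.7%, against 32.2% of all promoters) and CCAAT in 14 (33.3% against 37.8%). The ETS motif CCGGAAG was found in 7 (16.7% against 12.0%), TATAAA in 2 (4.76% against 12.0%), NRF1 (GCGCATGCG) in 2 (4.76% against 2.47%), YY1 (AAGATGGC) in 1 (2.38% against 3.13%) and the CRE motif TGACGTCA in 0 (2.33% of all). High CpG content and GGGGCGG often occur in the same windows, so these counts overlap.

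The RE1 element, bound by the repressor REST in cells that are not neurons, was searched as its left and right parts CAGCACC and GGACAGC on 1 strand, in that order, with at most 20 bases between them. Among the members this pair was found only in the window of Actl6b, the neuronal actin-like gene, and among all 19931 promoters it was found in 16 (0.0803%). It lies on the minus strand, 22 to 44 bases after the RefSeq start, at chr5:137553567-137553589, with 9 bases between the parts. The site reads GCTGTCCggccgcctcGGTGCTG on the strand of the gene, with both parts in capitals. Counted alone, CAGCACC was in 1 window of the members, that of Actl6b itself (2.38%, against 7.24% of all promoters), and GGACAGC was in 7 (16.7%, against 7.02%).

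The remaining BAF positions hold the small BCL7 proteins and the bromodomain proteins Brd7, of PBAF, and Brd9, of the non-canonical complex. Bcl7a was highest at 71.6 and 80.1 TPM, 1.86-fold above Bcl7b and 2.08-fold above Bcl7c. Bcl7b at 39.6 and 41.9 TPM and Bcl7c at 37.2 and 35.8 TPM were not separated. Over complete coding transcripts Bcl7b stood above Bcl7c with a log2 ratio of 0.91, as Bcl7c then had 21.6 and 21.5 TPM. Brd7 at 38.6 and 48.5 TPM and Brd9 at 46.9 and 52.9 TPM were not separated either. Here too the complete coding transcripts differed, at 20.3 and 18.4 TPM for Brd7, and Brd9 held 72.0 ± 3.09% of the pair.

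**Figure D2:**
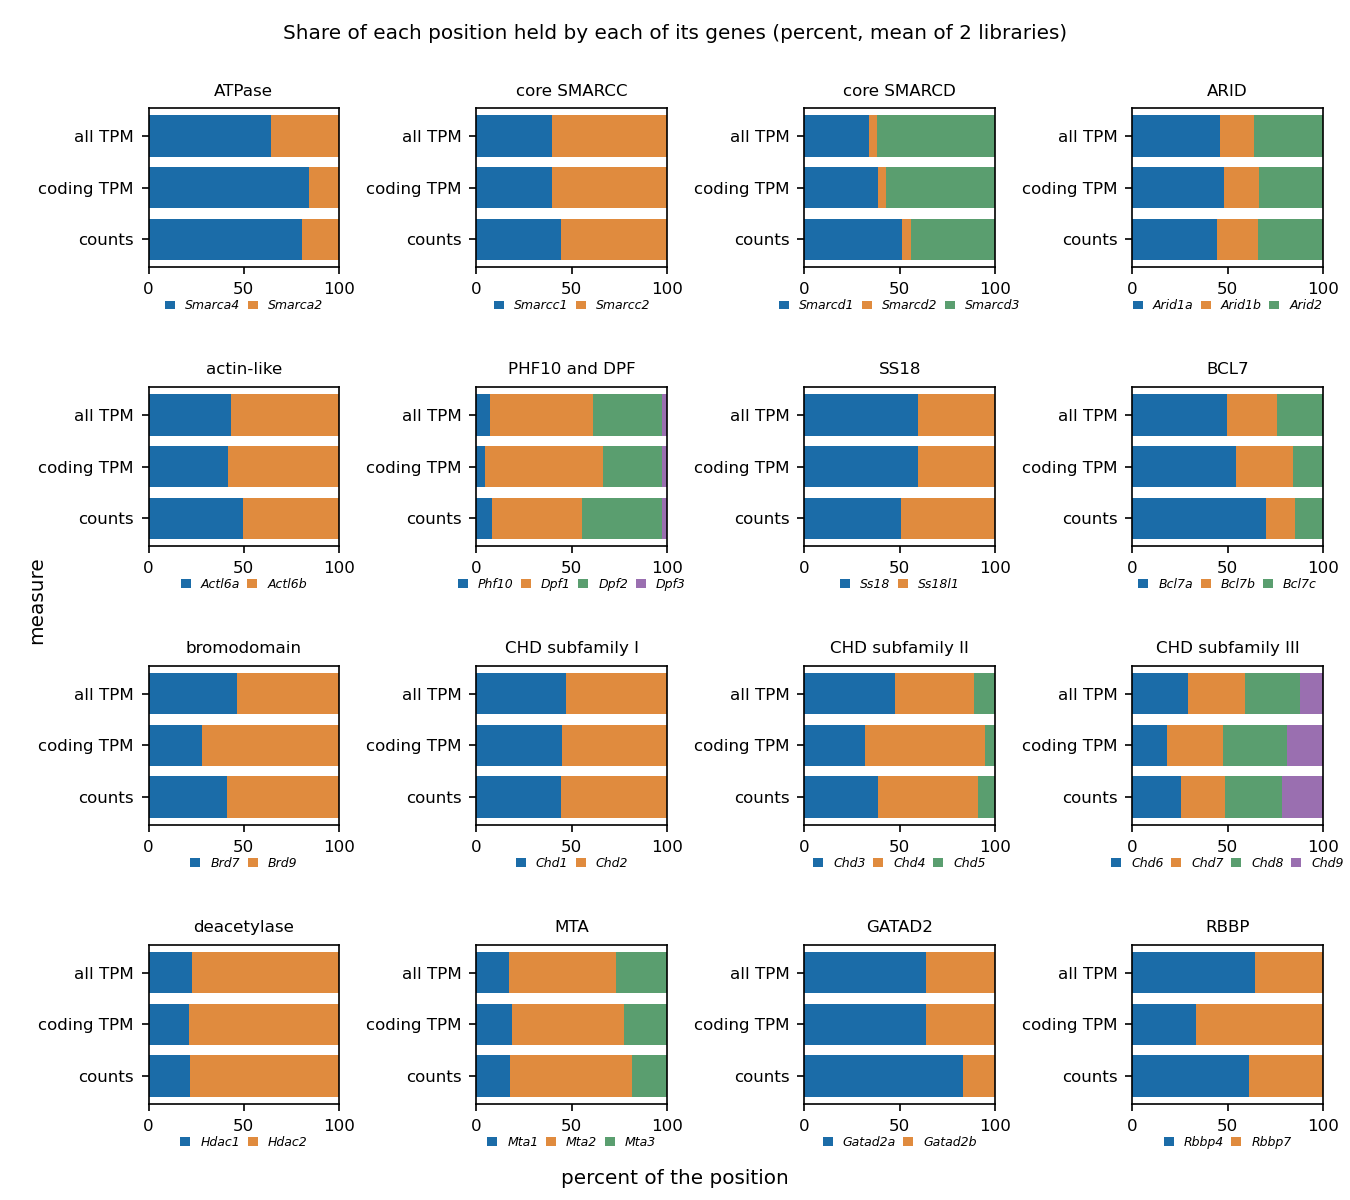
Share of each of the 16 positions with 2 or more genes, in percent (horizontal axis), as mean of the 2 libraries; each bar is split by gene, and the 3 bars of a panel give TPM over all transcripts, TPM over complete coding transcripts, and expected counts. The bars of a panel are alike for the deacetylases and for ARID, while those of the ATPases, RBBP, CHD subfamily II and the bromodomain genes shift with the measure, Rbbp4 from 64.4% to 33.5%.

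In NuRD the highest levels of all 45 genes were found. Hdac2 (chr10:36974544-37001889) measured 415 and 402 TPM, and its partner deacetylase Hdac1 measured 128 and 112 TPM. Hdac2 was 3.41-fold higher and held 76.4% and 78.2% of the position, and this hardly moved over complete coding transcripts (78.8%) or by counts (78.0%). Mbd3, the methyl-CpG-binding family member that links the parts of NuRD, was at 181 and 189 TPM.

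The histone chaperones Rbbp4 (chr4:129307100-129335370) and Rbbp7 measured 350.5 and 377 TPM and 188 and 215 TPM. Rbbp4 was therefore 1.81-fold above Rbbp7 over all transcripts. A single model held most of that level: Rbbp4-203, a processed transcript of 722 nt, was assigned 255 and 269 TPM, 72.9% and 71.3% of the gene. The full coding transcript Rbbp4-201 of 4407 nt was at 91.2 and 102 TPM, yet it held 8989 of the reads in replicate 1 against 3643 for the short model. Over complete coding transcripts the order turned, with Rbbp7 at 66.5 ± 0.27% of the pair and a log2 ratio of Rbbp4 over Rbbp7 of -0.99. By counts Rbbp4 held 61.3%.

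Mta2 led the MTA proteins, which bind the deacetylases, at 47.4 and 48.9 TPM. Mta3 was at 22.3 and 23.9 TPM and Mta1 at 15.5 and 14.2 TPM, and Mta2 exceeded them 2.09-fold and 3.24-fold. Mta3 exceeded Mta1 by 1.55-fold, a difference that was not separated by counts (log2 ratio of Mta1 over Mta3 -0.06) or over complete coding transcripts (-0.26, against -0.63). Gatad2a (p66 alpha) at 20.5 and 20.3 TPM exceeded Gatad2b (p66 beta) at 10.9 and 12.5 TPM by 1.75-fold.

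The ATPases of NuRD form CHD subfamily II. Chd3 measured 57.4 and 65.1 TPM, Chd4 49.9 and 56.0 TPM, and Chd5, the neuronal form and a tumour suppressor, 12.7 and 15.5 TPM. Chd3 exceeded Chd5 4.36-fold and Chd4 exceeded it 3.77-fold. Chd3 and Chd4 differed by only 1.16-fold, with Chd3 higher. That order turned under the other measures: complete coding transcripts gave 19.5 and 23.7 TPM for Chd3 against 41.3 and 44.5 TPM for Chd4 (log2 ratio of Chd3 over Chd4 -0.995), and expected counts gave -0.44. By complete coding transcripts Chd4 held 63.2 ± 2.62%, Chd3 31.7 ± 1.40% and Chd5 5.04 ± 1.22% of the subfamily.

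In subfamily I, Chd1, which binds methylated histone H3 at active genes, was at 13.7 and 17.8 TPM. Chd2, a gene of epileptic encephalopathy, was at 16.5 and 18.7 TPM, and the pair was not separated. Chd2 was separated above Chd1 by expected counts (log2 ratio of Chd1 over Chd2 -0.32) and over all protein-coding transcripts (-1.11). Over complete coding transcripts Chd1 was at 6.66 and 7.18 TPM and Chd2 at 7.78 and 9.18 TPM, again not separated. Chd2 shares 18.4% of its exonic bases with 1810026B05Rik on the same strand, which was at 17.0 and 19.0 TPM. In subfamily III, Chd6 at 20.8 and 27.6 TPM, Chd7 (the CHARGE syndrome gene) at 21.5 and 28.2 TPM and Chd8 (a leading autism gene) at 20.7 and 27.7 TPM could not be separated from each other. Chd9 at 8.34 and 11.4 TPM lay below each of them, by 2.45-fold against Chd8. By expected counts Chd7 and Chd9 were not separated (log2 ratio of Chd7 over Chd9 0.09, against 1.33 in TPM). Over complete coding transcripts these levels spread out, with Chd8 at 33.6%, Chd7 at 29.4%, Chd9 at 18.6% and Chd6 at 18.4% of the subfamily. The log2 ratio of Chd6 over Chd9 was then -0.01 in place of 1.30, while Chd8 stayed above Chd9 under every measure tried. All 4 genes of subfamily III were higher in replicate 2 with intervals apart, as were 39% of all genes. With TMM-normalized counts the log2 ratio (replicate 2 over replicate 1) of Chd7 was 0.0098. It was 0.25 for Chd6, 0.23 for Chd8 and 0.27 for Chd9.

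Of 6 other settings, those that left out a library or used the posterior mean TPM could not remove a separation, by their rules. Only expected counts, protein-coding transcripts and complete coding transcripts could. Of the 30 separated pairs, 20 kept their direction and their separation under each of the 6 settings. They included Smarca4 over Smarca2, Smarcc2 over Smarcc1, the 3 ARID pairs, Dpf1 and Dpf2 each over Phf10 and Dpf3, Bcl7a over Bcl7b and Bcl7c, Chd3 and Chd4 each over Chd5, Hdac2 over Hdac1, Mta2 over Mta1 and Mta3, and Gatad2a over Gatad2b.

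The transcript tables gave 277 transcripts for the members, of which 149 were protein-coding, 65 retained introns, 45 processed transcripts and 16 targets of nonsense-mediated decay by type, and 2 had no type. For the 40 members with 2 or more transcripts the median share of the TPM in protein-coding transcripts was 94.1%, and it was 94.2% over all 7783 such genes of the tables. The share was under 60% in 9 members, against 13.7% of genes. These were Rbbp4 (27.5 ± 1.00%), Chd5 (24.2 ± 4.78%), Phf10 (37.3 ± 3.90%), Chd3 (38.7 ± 0.21%), Brd7 (45.3 ± 10.4%), Chd1 (47.7 ± 8.05%), Dpf2 (51.1 ± 1.36%), Smarca2 (55.8 ± 10.8%) and Bcl7c (59.0 ± 1.43%).

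Measured as a share of expected counts, 7.39% of genes were under 60%, and of the members only Phf10 (32.5%) and Bcl7c (37.0%) were. For both, a long transcript typed as a target of nonsense-mediated decay took most reads: Phf10-203 of 3901 nt held 55.9% and 64.1% of the counts, and Bcl7c-202 of 4338 nt held 55.8% and 61.7%. Over the members, transcripts shorter than 1000 nt held 15.9% of the TPM but 3.35% of the counts. In Chd5 the most abundant model by TPM was Chd5-204, a processed transcript of 280 nt with 62.2% and 55.1% of the level, and it rested on 32.7 and 27.2 counts. In Smarca2 it was Smarca2-215, a decay target of 1460 nt at 23.7 and 26.5 TPM. The full-length Smarca2-201 of 5858 nt was at 11.7 and 23.5 TPM, and it held 57.5% and 65.0% of the counts of the gene. In Brd7, Dpf2, Phf10 and Bcl7c the most abundant transcript by TPM was a complete coding one: Brd7-201 at 20.3 and 18.4 TPM, Dpf2-202 at 50.2 and 49.0 TPM, Phf10-201 at 8.29 and 7.16 TPM, and Bcl7c-201 at 21.6 and 21.5 TPM.

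**Figure D3:**
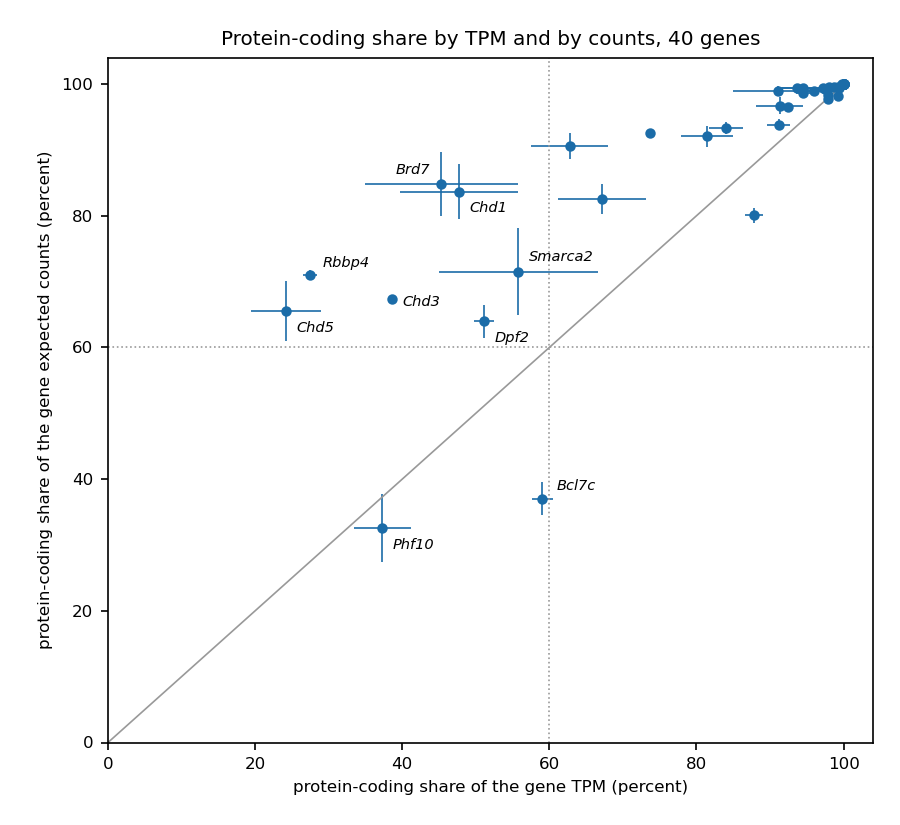
Share of protein-coding transcripts in the TPM of a gene (horizontal axis, percent) against its share in the expected counts (vertical axis, percent), for the 40 members with 2 or more transcripts; points are means of 2 libraries, bars are SDs, the solid line marks equal shares and dotted lines mark 60%. Of the 9 genes left of the vertical dotted line, all but Phf10 and Bcl7c lie above the horizontal one.

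The same transcript was the most abundant in both libraries for 33 of the 40 members, or all but 7, and this held for 91.8% of the genes of the tables. The 7 exceptions were Chd1, Chd3, Chd4, Chd7, Mbd3, Mta3 and Rbbp7. In Chd1 the full coding Chd1-201 (6.54 and 6.77 TPM) led in replicate 1 and the processed Chd1-203 (6.40 and 10.3 TPM) in replicate 2. In Chd3 the retained introns Chd3-205 (20.4 and 14.0 TPM) and Chd3-203 (13.0 and 23.6 TPM) changed places, and in Chd7 Chd7-206 (8.40 and 8.93 TPM) gave way to the partial Chd7-203 (6.20 and 12.5 TPM). The others swapped between coding transcripts: Chd4-202 (17.8 and 16.8 TPM) with Chd4-203 (17.4 and 19.5 TPM), Mbd3-206 (73.7 and 70.3 TPM) with Mbd3-204 (71.4 and 88.7 TPM), Mta3-203 (7.05 and 5.90 TPM) with Mta3-202 (4.65 and 6.79 TPM), and Rbbp7-203 (84.4 and 84.8 TPM) with Rbbp7-201 (80.5 and 99.2 TPM).

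Between the 2 libraries no member was called different by the rule of 2-fold or more with intervals apart and a mean of 5 TPM or more, and 0.309% of 10368 genes were. The closest was Smarca2, 1.60-fold higher in replicate 2. Intervals lay apart with the higher value in replicate 2 for 24 members, against 39% of genes, and with the lower value for 3 members, against 8.18%. Those 3 were Actl6a, Hdac1 and Hdac2, with log2 ratios of TPM + 1 (replicate 2 over replicate 1) of -0.19, -0.19 and -0.04. In all, 37 of 45 members were higher in replicate 2, beside 73.8% of genes. The median log2 ratio was 0.17 for the members and 0.14 for the genes.

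This shift went with transcript length over all genes. Genes up to 1000 nt had a median log2 ratio of -0.15, and the median was larger in each longer bin, up to 0.32 for genes above 7000 nt. Measured from the median of its bin, the median member was at 0.01, and 24 of 45 members lay above it. The scaling mattered as well: with TMM-normalized counts the median log2 ratio was -0.01 for the members and -0.03 for the genes. By that measure 18 of 45 members were higher in replicate 2, beside 44.4% of genes. Smarca2 was higher in replicate 2 under each scaling (log2 ratio 0.65 with TMM-normalized counts), and so were Dpf1 (0.15) and Ss18l1 (0.12). Dpf3 turned from 0.32 in TPM to -0.08. Outside the exchanged positions, Chd5 (0.38), Chd9 (0.27), Chd6 (0.25), Arid1b (0.24) and Chd8 (0.23) were also higher under each scaling. Actl6a, Hdac1 and Hdac2 were lower under each (-0.35, -0.41 and -0.22), whereas the small difference of Actl6b turned from 0.15 in TPM to -0.03. With the same counts, 5 of 6 neuron markers and 0 of 6 progenitor markers were higher in replicate 2, beside the 44.4% of genes.

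**Figure D4:**
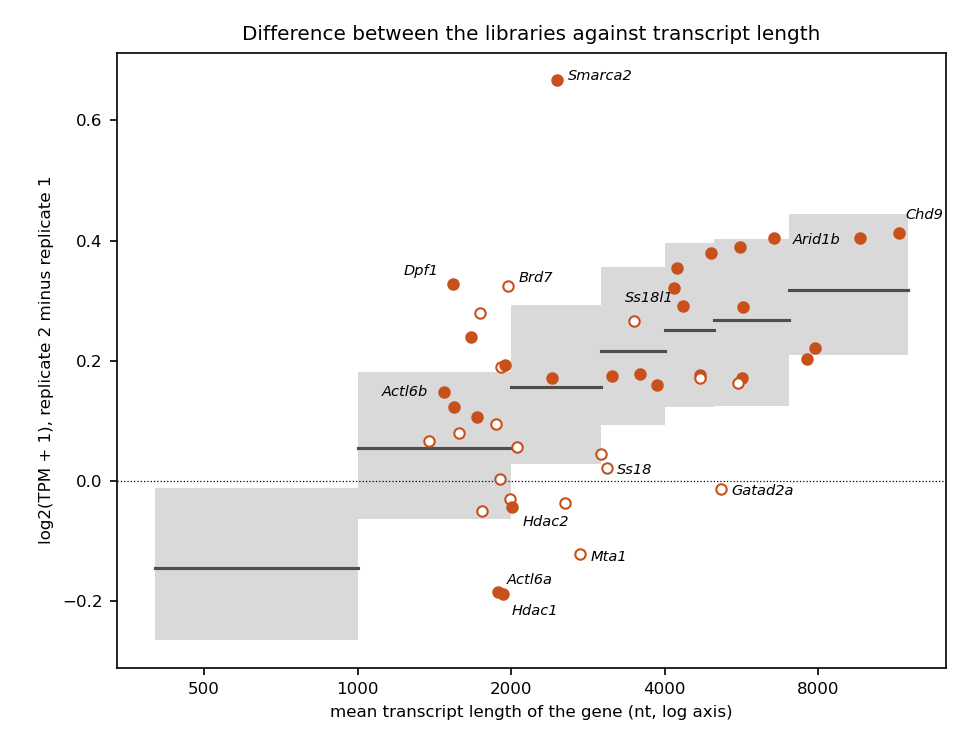
Difference of log2(TPM + 1) between replicate 2 and replicate 1 (vertical axis) against the mean transcript length of the gene in nt (horizontal log axis), for the 45 members. Filled points have intervals apart and open points do not, grey boxes give the middle 50% and black lines the median of all genes with a mean of 5 TPM or more in bins of length, of which the first and last have no outer limit. Smarca2 lies far above its bin, and Gatad2a, Mta1, Hdac1 and Actl6a, among others, below theirs.

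The other remodelling genes of the tissue were read from lists of related complexes. All 7 of 7 further BAF and NuRD subunits, 11 of 11 ISWI genes, 15 of 15 genes of the INO80, SRCAP and EP400 complexes and 11 of 11 other SNF2-like ATPases were detected in both libraries. Their median levels were 67.5 ± 7.32, 29.95 ± 2.45, 53.5 ± 5.08 and 21.6 ± 2.12 TPM (SD of the 2 library medians), so the members, at 48.2 TPM, lay within the range of these lists. None of these genes was called different between the libraries. The leading further subunits were Actb, the actin shared with the cytoskeleton, at 8596 ± 40.0 TPM, Bcl11a at 135 ± 18.1 TPM and Cdk2ap1 at 82.7 ± 14.1 TPM. The leading ISWI genes were Pole3 at 66.8 ± 0.09 TPM, the ATPase Smarca5 at 59.2 ± 0.54 TPM and Chrac1 at 55.8 ± 13.9 TPM. Vps72 at 194 ± 2.82 TPM, Ruvbl1 at 122 ± 2.45 TPM and Ruvbl2 at 113 ± 6.52 TPM led the INO80, SRCAP and EP400 list. Among the other ATPases Atrx was highest at 164 ± 49.3 TPM, above the mean of Smarca4 (119 ± 16.9 TPM), followed by Smarcad1 at 36.2 ± 1.75 TPM and Smarcal1 at 26.8 ± 4.27 TPM.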

How the data were processed

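Total RNA-seq of 2 forebrain libraries was used, each with gene and transcript tables. Per the file headers, the authors deposited expected counts, TPM, FPKM, posterior mean TPM with an interval, and an isoform percent per transcript, which was recomputed here from TPM. The deposited TPM intervals have no stated level, and the TPM lay outside them for 6 members in replicate 1 and 8 in replicate 2, since they are centred on the posterior mean. Reads were assigned to assembly mm10 and GENCODE annotation M4, per the notes deposited with the files. Aligner, quantifier and use of strand are not given in the sources used here.

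Names, types and coordinates came from GENCODE M21 (GRCm38) by gene ID without version, which matched 42462 of 43346 Ensembl genes. With 1 group of 2 libraries no test between groups was made. Values are given for each library or as mean ± SD over both. Calls rest on the deposited intervals, and a gene was tested between libraries at a mean of 5 TPM or more, with a pseudocount of 1 in log2 ratios and none in ratios of paralogues. Without intervals, 1.25-fold or more in both libraries counted as separated. Expected counts were rounded for TMM normalization with edgeR 4.0.16 and R 4.3.3. Python 3.11.15, pandas 2.3.3, numpy 2.4.6, scipy 1.17.1 and matplotlib 3.10.9 were used. The rule for differences between libraries was run on simulated counts with counting error only and with intervals computed from those counts. That simulation lacked the wider spread between the libraries and the deposited intervals, so it cannot show how the rule performs on these data. Members, lists and alternatives were chosen with earlier results of these data known. Named were all members, the 3 highest genes of each list of other remodellers, and the leading transcripts of members with a coding share under 60% or with different leading transcripts. Smarca2-201, Rbbp4-201, Phf10-203, Bcl7c-202 and the second transcript of each swap were named after their values were seen.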

Additional observations from a re-analysis of the deposited data

How the results depend on the processing

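All 45 members stayed detected under each alternative tried. The median level of the members was 46.9 and 48.9 TPM with 1 library each, 40.4 TPM for protein-coding transcripts, 30.1 in FPKM and 31.1 TPM for complete coding transcripts, a setting chosen after seeing the data. Separated pairs numbered 16 when a 2-fold difference was required. No member was called different between the libraries except at 1.5-fold, which gave 1, Smarca2. The median log2 ratio of the members was -0.0054 with TMM-normalized counts and 0.0145 relative to genes of like length (chosen after seeing the data). The median coding share was 95.2% with decay targets included, 98.3% by counts and 81.2% for complete coding transcripts. Over all genes with 2 or more transcripts it was 97.7% by counts and 89.7% for complete coding transcripts. Among pairs, the log2 ratio turned for Smarcd1 over Smarcd3 by counts (0.22), for Chd3 over Chd4 with coding transcripts (-1.08), by counts (-0.44) and with complete coding transcripts (-0.995), for Rbbp4 over Rbbp7 with coding (-1.01) and complete coding transcripts (-0.99), and for Chd6 over Chd9 with complete coding transcripts (-0.0149). The transcript types and the division by length decide these values by construction. No paired analysis was possible because there is 1 group. With 2 libraries the spread is poorly known.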
